A study of Homo sapiens with 6 samples.

Results

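The collagen genes were followed here in 2 human pancreatic ductal adenocarcinoma (PDAC) cell lines exposed to inhibitors of retinoic acid receptor γ (RARγ). The members are the genes whose symbol consists of COL, a type number, A and a chain number, which gave 44 genes among the 53826 entries of each library, each symbol present once. The established lines PK-1 and Panc-1 each gave 3 RNA-seq libraries: a control, one from cells given the RARγ antagonist LY2955303 (named RARγi-1) for 24 h, and one from cells given the RARγ antagonist MM11253 (named RARγi-2) for the same time. With 1 library per condition, replicate error cannot be estimated and p-values are not given. The titles name the inhibitor of each library, whereas the treatment entry of each RARγi-2 library names RARγi-1, and the titles were followed. Neither the inhibitor doses used for sequencing nor the control vehicle is given in the sources used here, so the values of the inhibitors are set side by side without comparing the compounds.

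The files hold TPM, a transcript level scaled to length and library, which can be compared between genes, with everything under 1 TPM raised to 1 TPM. This limit is called the floor. The depth of the libraries is unknown, because TPM keeps no read number. Fold changes are log2 of (TPM + 1) in one library over (TPM + 1) in another, and where the floor is one of the values the size of the change is a lower limit. A gene is called higher or lower, or is said to have risen or fallen, only past 2-fold. The nearest measure of variation, the robust spread of the log2 difference between the treated libraries of a line, was 0.41 in PK-1 and 0.32 in Panc-1; any difference between the inhibitors is part of it. In these bulk libraries, fewer cells that express a gene and less RNA per cell cannot be told apart.

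Collagens are secreted or membrane-bound proteins in which 3 chains wind into a triple helix. Fibrillar collagens (types I, II, III, V, XI, XXIV and XXVII) form the banded fibers of connective tissue, fibril-associated collagens decorate these fibers, type IV collagen builds the sheet of the basement membrane, type VII anchors epithelium to the tissue beneath it, type VI forms beaded microfilaments, and transmembrane collagens stay in the cell surface. PDAC is known for a dense stroma rich in collagen, most of which is made by fibroblasts and stellate cells, while the carcinoma cells add chains of their own. Many collagen molecules need chains from more than one gene, and several of these partner genes lie next to each other in the genome.

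The start regions of the neighbors are shown first, because the genes of the type IV pairs are later described together. In RefSeq on GRCh38.p14, the build family named in the submitters' processing notes (hg38), COL4A1 (chromosome 13, 110148963 to 110307157) and COL4A2 (chromosome 13, 110307284 to 110513209) run away from each other, with annotated starts 127 bases apart. COL4A6 (chromosome X, 108155614 to 108439458) and COL4A5 (chromosome X, 108439838 to 108697545) do the same, with starts 380 bases apart for the start of COL4A6 nearest to COL4A5. Each window runs from 250 bases before the annotated start to 50 after it, 5′ to 3′ on the strand of the gene, and capitals mark the GC box GGGCGG and the CCAAT box CCAAT on either strand. The window of COL4A2 (chr13:110307034-110307333, plus strand) also holds the start of COL4A1. The windows of COL4A5 (chrX:108439588-108439887, plus strand) and COL4A6 (chrX:108439409-108439708, minus strand) share 121 bases. The window of COL7A1 (chr3:48595280-48595579, minus strand) is shown because the gene moved in opposite directions in the cell lines.
COL4A2: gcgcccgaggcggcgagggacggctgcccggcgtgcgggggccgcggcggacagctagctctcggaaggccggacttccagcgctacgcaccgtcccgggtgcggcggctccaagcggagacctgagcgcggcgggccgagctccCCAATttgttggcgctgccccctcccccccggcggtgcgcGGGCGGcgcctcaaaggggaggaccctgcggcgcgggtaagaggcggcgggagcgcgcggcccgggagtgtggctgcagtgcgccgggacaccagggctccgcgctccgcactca
COL4A5: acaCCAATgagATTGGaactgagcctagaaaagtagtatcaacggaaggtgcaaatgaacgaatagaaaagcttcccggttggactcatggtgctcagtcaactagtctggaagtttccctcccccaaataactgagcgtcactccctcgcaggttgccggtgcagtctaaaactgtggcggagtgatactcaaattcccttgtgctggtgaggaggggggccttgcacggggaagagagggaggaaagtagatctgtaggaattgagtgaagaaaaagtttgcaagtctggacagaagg
COL4A6: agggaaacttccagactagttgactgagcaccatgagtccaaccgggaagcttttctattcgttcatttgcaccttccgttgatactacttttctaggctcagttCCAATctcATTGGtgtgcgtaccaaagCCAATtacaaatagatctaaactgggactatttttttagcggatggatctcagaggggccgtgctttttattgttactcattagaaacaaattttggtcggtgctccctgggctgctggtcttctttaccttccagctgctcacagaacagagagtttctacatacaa
COL7A1: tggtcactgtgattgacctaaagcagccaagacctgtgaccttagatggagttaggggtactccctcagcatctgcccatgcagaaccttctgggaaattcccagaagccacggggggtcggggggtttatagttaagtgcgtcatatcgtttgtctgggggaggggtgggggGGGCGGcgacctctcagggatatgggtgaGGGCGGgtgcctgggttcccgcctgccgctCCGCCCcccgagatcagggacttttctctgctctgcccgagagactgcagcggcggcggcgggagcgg

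The COL4A2 window holds 1 GC box and 1 CCAAT box, and the COL7A1 window 3 GC boxes. No GC box is in the printed windows of COL4A5 and COL4A6, which hold 2 and 3 CCAAT boxes; a window at another start of COL4A6 holds 1 GC box. Of all 35116 windows of this length, 45% hold a GC box and 34.6% a CCAAT box. Promoter windows were at hand for 32 of the 44 collagen genes, some with several starts, 44 windows in all, of which 24 hold a GC box and 14 a CCAAT box. The letters TATAAA are in 8 of these windows (11.5% of all windows), and the AP-1 site TGANTCA in 1 (7.71% of all). The direct repeat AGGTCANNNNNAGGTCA, an exact spelling of a repeat bound by RAR together with RXR, is in 0 of the 44 and in 0.0057% of all windows. Other spellings and spacings were not searched. A string this rare could hardly be found in 44 windows, so its absence says nothing about RAR binding. A match is a description of letters, and the absence of one says only that these letters are not in the window.

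In all, 24 of the 44 collagen genes were above the floor in at least 1 library and 15 reached 10 TPM. PK-1 expressed 14 of them and Panc-1 18, with 8 in both lines, 6 in PK-1 alone and 10 in Panc-1 alone. The other 20 genes were at the floor in every library: COL1A2, COL2A1, COL3A1, COL4A3, COL4A4, COL5A3, COL6A5, COL6A6, COL8A1, COL9A1, COL10A1, COL14A1, COL15A1, COL19A1, COL20A1, COL21A1, COL23A1, COL24A1, COL25A1 and COL28A1. COL1A2 and COL3A1, which encode chains of the main collagens of stroma, are among these.

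**Figure D1:**
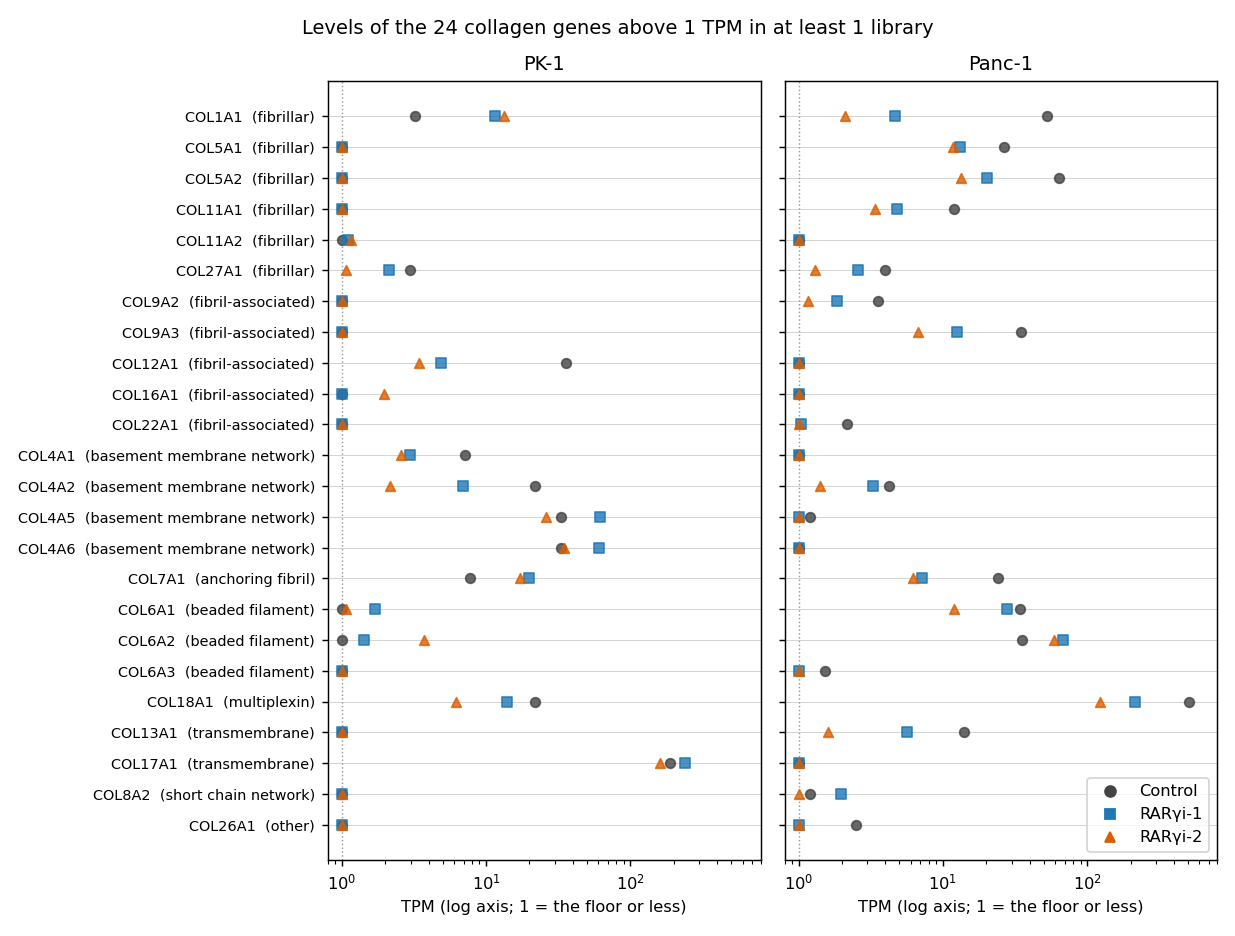
TPM on a log axis for the 24 collagen genes above 1 TPM in at least 1 library, by class, in PK-1 and Panc-1; each point is 1 library (circle, Control; square, RARγi-1; triangle, RARγi-2) and the dotted line is the floor. COL17A1, COL4A5, COL4A6 and COL12A1 are seen in PK-1 and COL5A1, COL5A2, COL9A3 and COL13A1 in Panc-1.

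The label of the cells was checked against marker genes. The 6 epithelial markers were all above the floor in PK-1, with a summed level of 13507 to 22498 TPM over its 3 libraries. In Panc-1 the sum was 1484 to 8418 TPM, and CDH1, which encodes E-cadherin, was at the floor in all 3 libraries. The 4 mesenchymal markers summed to 46.8 to 142 TPM in PK-1 and 3975 to 6306 TPM in Panc-1, most of it VIM. Of 10 markers of fibroblasts and stellate cells, 7, among them DCN, LUM, PDGFRA and PDGFRB, were at the floor in all 6 libraries; FBLN1 held most of the summed 15.1 to 85.1 TPM, and THY1 and ACTA2 made up the rest. All 3 endothelial markers and the leukocyte gene PTPRC were at the floor, while CD68, a macrophage marker, was at 19.8 to 276 TPM.

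The summed level of the collagen genes above the floor was 355 TPM in PK-1 Control, 428 TPM under RARγi-1 and 275 TPM under RARγi-2. In Panc-1 it was 827 TPM in the control, 390.4 TPM under RARγi-1 and 242 TPM under RARγi-2. The Panc-1 sum was thus 2.12 and 3.42 times as high in the control as with the respective inhibitors, whereas the PK-1 sums lay on both sides of their control. A single gene made up more than 50% of the sum in each library, COL17A1 in PK-1 (53.0% to 58.4%) and COL18A1 in Panc-1 (50.4% to 61.7%).

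**Figure D2:**
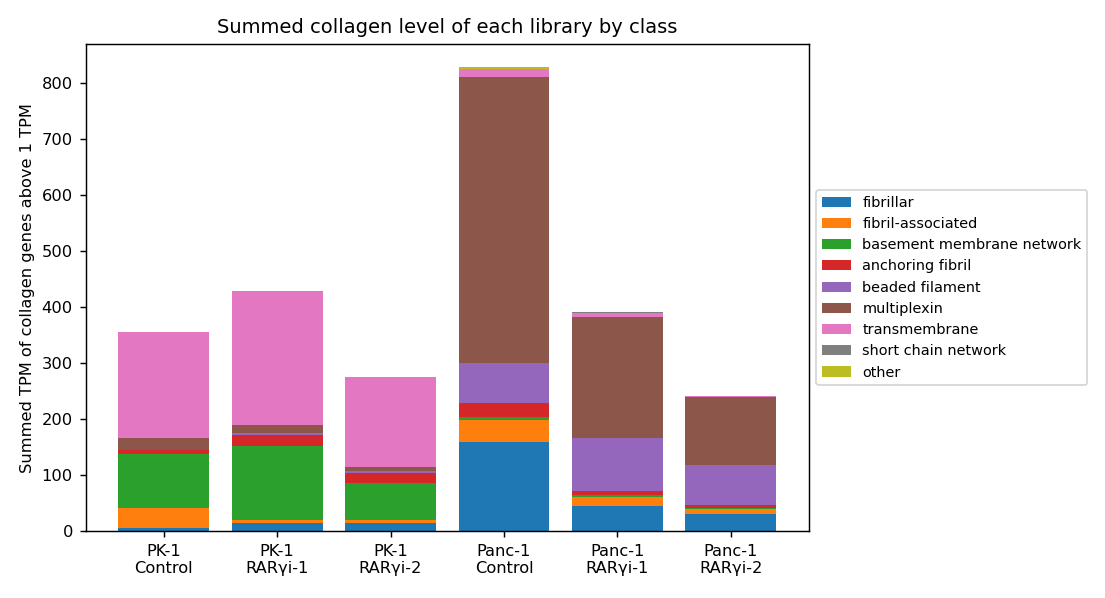
Summed TPM of the collagen genes above 1 TPM in each of the 6 libraries, stacked by class. Transmembrane and basement membrane collagens fill most of the PK-1 bars, and the multiplexin COL18A1, fibrillar and beaded filament collagens most of the Panc-1 bars, whose height goes from 827 TPM in the control to 242 TPM with RARγi-2.

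The first comparison was that of the untreated cell lines. Of 22 collagen genes above the floor in either control, 11 were higher in Panc-1 (50%, against 15.7% of all entries above the floor in either control) and 6 were higher in PK-1 (27.3%, against 14.6%). The fibrillar chains were largely a feature of Panc-1, with a class sum of 158 TPM in Panc-1 Control and 6.18 TPM in PK-1 Control. The basement membrane chains of type IV were the reverse, at 5.43 and 95.2 TPM. With 1 library per line and condition, a difference between lines is a difference between these libraries.

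COL17A1 (Entrez gene 1308; chromosome 10, 104031286 to 104085880), which encodes the transmembrane collagen of hemidesmosomes, was the most abundant collagen gene of PK-1. It stood at 188 TPM in the control, 239 TPM under RARγi-1 and 161 TPM under RARγi-2, and at the floor in the 3 Panc-1 libraries. The level in each PK-1 library was at least 160.6 times the floor, and the log2 fold changes with the inhibitors, 0.35 and -0.23, were within the spread.

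COL18A1 (80781; chromosome 21, 45405165 to 45513720), a basement membrane proteoglycan collagen and the source of endostatin, was the most abundant collagen gene of Panc-1. Its level was 510.2 TPM in the control, 216 TPM under RARγi-1 and 122 TPM under RARγi-2. In PK-1 the levels were 21.9, 13.9 and 6.20 TPM. The Panc-1 and PK-1 libraries did not overlap, and both treated libraries lay below the control in each line. Panc-1 had log2 fold changes of -1.24 and -2.06, and PK-1 of -0.62 and -1.67, so that the gene fell in every comparison other than RARγi-1 in PK-1.

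After treatment the number of genes higher in Panc-1 was 8 of 21 with RARγi-1 (14.9% of all entries) and 7 of 20 with RARγi-2 (16.1%). Those higher in PK-1 numbered 6 with each inhibitor (16.3% and 16.2% of all entries), but COL1A1 and COL7A1 had joined them and COL4A1 and COL4A2 had left, both below 2-fold on the scale with a pseudocount of 1. Without it COL4A1 was at least 2.98 and 2.56 times as high in PK-1, and COL4A2 2.10 and 1.56 times. The lines therefore changed order for 2 genes, which are described next.

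COL1A1 (1277; chromosome 17, 50184101 to 50201631) encodes the main chain of type I collagen, the commonest fibrillar collagen. In Panc-1 it stood at 52.4 TPM in the control and fell to 4.65 TPM under RARγi-1 and 2.10 TPM under RARγi-2. In PK-1 it stood at 3.21 TPM in the control and rose to 11.5 and 13.4 TPM. In Panc-1 the log2 fold changes, -3.24 and -4.10, were the lowest of any collagen gene in each comparison, and in PK-1, at 1.57 and 1.78, the highest. The control of Panc-1 was above that of PK-1, and each treated Panc-1 library was below the PK-1 library with the same inhibitor. COL1A2, which encodes the partner chain of type I collagen, was at the floor in all 6 libraries, so the ratio of COL1A1 to COL1A2 was at least 52.4 in Panc-1 Control.

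COL7A1 (1294; chromosome 3, 48564073 to 48595329), the gene of the anchoring fibrils beneath stratified epithelia, showed the same opposite directions. Its level in Panc-1 was 24.3 TPM in the control, 7.19 TPM under RARγi-1 and 6.17 TPM under RARγi-2. In PK-1 it was 7.69, 20.0 and 17.1 TPM. Panc-1 log2 fold changes were thus -1.62 and -1.82, and those of PK-1 were 1.27 and 1.06, each larger than the spread. With a pseudocount of 5 both PK-1 values were within 2-fold, at 0.98 and 0.80.

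The second comparison was that of each treated library with the control of its line. In Panc-1, 0 of 18 collagen genes rose with either inhibitor (7.4% of all entries did with RARγi-1 and 8.5% with RARγi-2). For the rises, 18 genes are too few to set 0 calls apart from these shares. With RARγi-1, 7 of the 18 fell (38.9%, against 6.03% of all entries), and with RARγi-2, 12 of the 18 (66.7%, against 11.2%). The median log2 fold change of the 18 genes was -0.75 for RARγi-1 and -1.12 for RARγi-2, while that of all entries was 0.09 and -0.03. Both comparisons use the same control library.

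**Figure D3:**
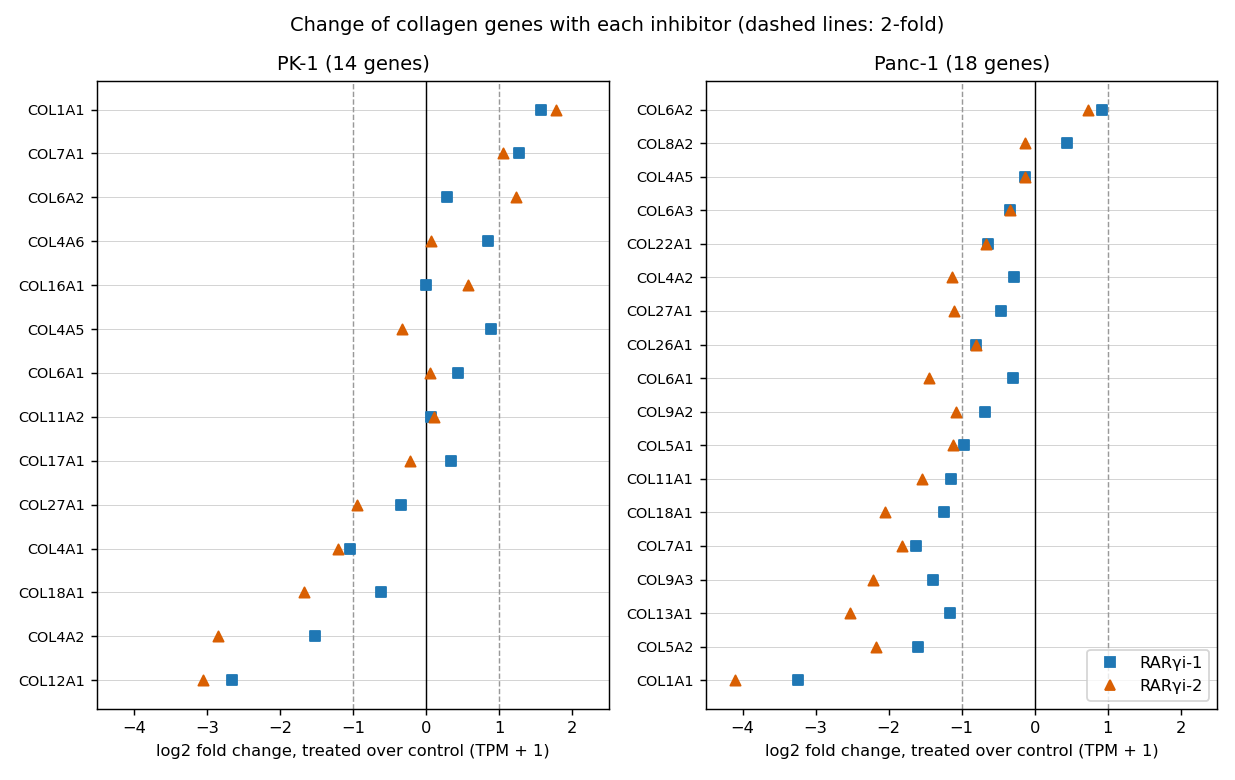
Log2 fold change of (TPM + 1), treated over control, for the collagen genes above the floor in at least 1 library of the line (14 of PK-1, 18 of Panc-1). Squares are RARγi-1, triangles RARγi-2, and the dashed lines mark 2-fold. In Panc-1 no point lies past the right dashed line and COL1A1 is the lowest, and in PK-1 COL1A1 and COL7A1 lie at the right and COL12A1 and COL4A2 at the left.

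In PK-1 the family did not go one way. With RARγi-1, 2 of 13 genes rose (15.4%, against 9.25% of all entries) and 3 fell (23.1%, against 4.96%). With RARγi-2, 3 of 14 rose (21.4%, against 12.1%) and 4 fell (28.6%, against 12.6%). The medians were 0.28 and -0.09, beside 0.15 and 0.03 for all entries. The genes that rose with both were COL1A1 and COL7A1, and COL6A2 passed the threshold with RARγi-2 from the floor (0.54 with a pseudocount of 5). Of the 24 collagen genes above the floor in at least 1 library, 0 rose and 0 fell in all 4 comparisons (2.15% and 1.74% of all entries did). Only 8 of the 24 were above the floor in both lines.

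Among the fibrillar chains of Panc-1, COL5A1 and COL5A2, which encode the type V chains that help to start fibrils and set their width, were at the floor in all PK-1 libraries. COL5A2 (1290; chromosome 2, 189031898 to 189441111) stood at 63.6 TPM in Panc-1 Control and fell to 20.3 TPM under RARγi-1 and 13.3 TPM under RARγi-2, log2 fold changes of -1.60 and -2.18. COL5A1 (1289; chromosome 9, 134641803 to 134844843) went from 26.7 TPM to 13.1 and 11.8 TPM, and its log2 fold changes were -0.98, just inside 2-fold, and -1.12, or -0.92 for the latter with a pseudocount of 5. After rescaling and without a pseudocount COL5A1 was past 2-fold with RARγi-1 as well, at -1.07 and -1.03.

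COL11A1 (1301; chromosome 1, 102876473 to 103108522), a minor fibrillar chain known from cartilage and from activated tumor fibroblasts, was at 11.9 TPM in Panc-1 Control and fell to 4.80 and 3.39 TPM, log2 fold changes of -1.15 (-0.78 with a pseudocount of 5) and -1.55. COL27A1, a fibrillar chain with a short helix, was low in both lines. Its Panc-1 levels were 3.95 TPM in the control, 2.60 TPM under RARγi-1 and 1.30 TPM under RARγi-2, and its PK-1 levels were 2.97, 2.13 and 1.07 TPM. The log2 fold change of COL27A1 with RARγi-2 was -1.11 in Panc-1 and -0.94 in PK-1, where the control was 2.78 times the treated level without a pseudocount. COL11A2 did not exceed 1.16 TPM in any library.

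Among the fibril-associated chains, COL12A1 (1303; chromosome 6, 75084326 to 75206053), which encodes the single chain of type XII collagen on the surface of type I fibrils, was a PK-1 gene. It stood at 35.8 TPM in PK-1 Control and fell to 4.85 TPM under RARγi-1 and 3.44 TPM under RARγi-2, and it was at the floor in Panc-1. Its log2 fold changes, -2.65 and -3.05, were the lowest of any collagen gene in PK-1. In the same libraries COL1A1 rose, so these 2 genes of associated fibers moved apart.

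COL9A3 (1299; chromosome 20, 62816213 to 62841159), a chain of the type IX collagen of cartilage, was a Panc-1 gene that went from 34.7 TPM to 12.6 and 6.71 TPM. Its log2 fold changes were -1.39 and -2.21. COL9A2, a partner chain of type IX, went from 3.57 TPM to 1.84 and 1.17 TPM, and the further chain gene COL9A1 was at the floor in all libraries. COL22A1 was at 2.18 TPM in Panc-1 Control and at 1.04 TPM or the floor after treatment, and COL16A1 was above the floor only with RARγi-2 in PK-1, at 1.97 TPM.

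The type IV genes fall into the pairs whose start regions are printed above. COL4A2 (1284) stood at 21.9 TPM in PK-1 Control, 6.96 TPM under RARγi-1 and 2.18 TPM under RARγi-2. COL4A1 (1282) stood at 7.19, 2.98 and 2.56 TPM. Both genes of this pair fell with both inhibitors in PK-1, with log2 fold changes of -1.52 and -2.85 for COL4A2 and -1.04 and -1.20 for COL4A1. With a pseudocount of 5 the values of COL4A1 were within 2-fold, at -0.61 and -0.69. In Panc-1, COL4A1 was at the floor, while COL4A2 went from 4.24 TPM to 3.31 and 1.40 TPM, log2 fold changes of -0.28 and -1.13 (-0.53 for the latter with a pseudocount of 5).

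The pair on the X chromosome did not follow. COL4A5 (1287) was at 33.0 TPM in PK-1 Control, 61.8 TPM under RARγi-1 and 26.2 TPM under RARγi-2. COL4A6 (1288) was at 33.1, 60.6 and 34.6 TPM. The genes of this pair had nearly the same level in PK-1 Control and with RARγi-1 and less so with RARγi-2, the ratio of COL4A5 to COL4A6 being 0.998 in the control, 1.02 with RARγi-1 and 0.758 with RARγi-2. Their log2 fold changes with RARγi-1, 0.89 and 0.85, were past the spread but within 2-fold, and those with RARγi-2 were -0.32 and 0.06. In Panc-1 COL4A6 was at the floor and COL4A5 did not exceed 1.20 TPM. Both genes of the X chromosome pair were above both genes of the other pair in each PK-1 library. COL4A3 and COL4A4, the third pair of neighbors, were at the floor.

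**Figure D4:**
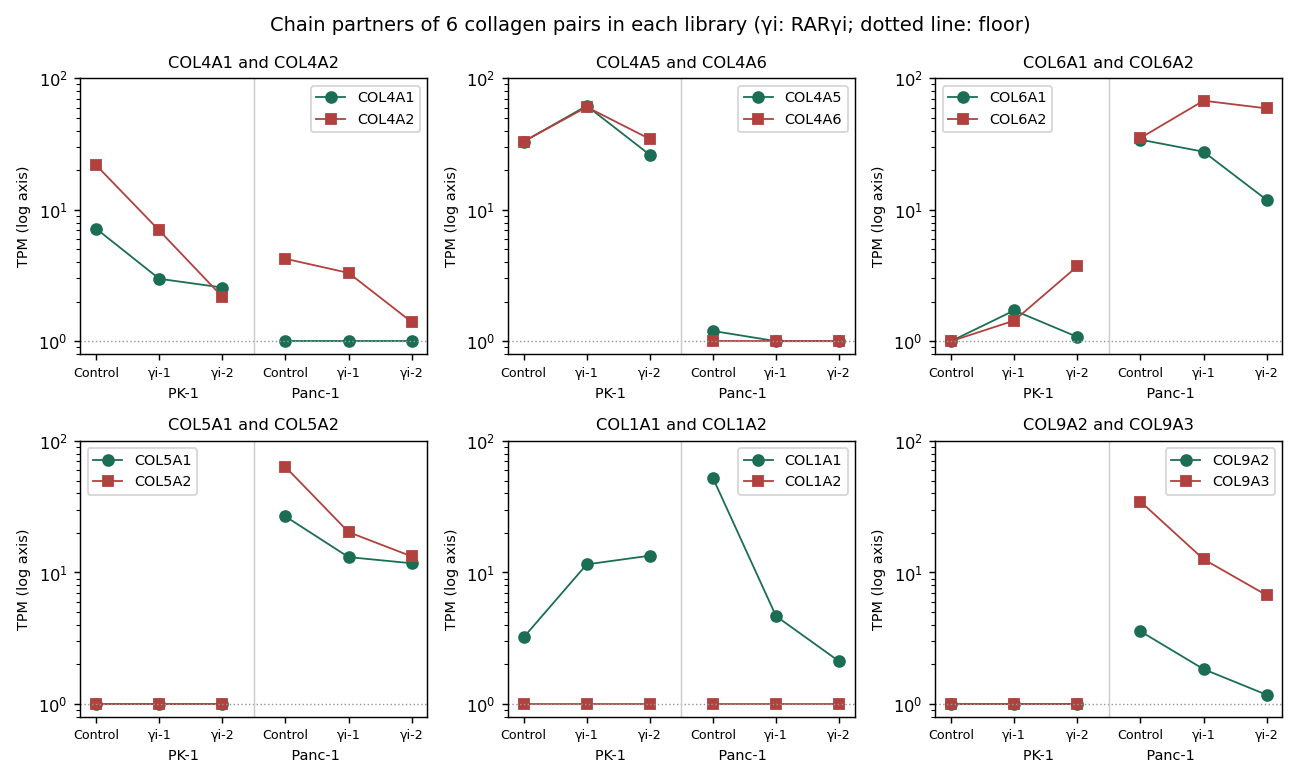
TPM on a log axis of both genes of 6 collagen chain pairs in the 6 libraries, with lines joining the libraries of a cell line and the floor dotted. COL4A5 and COL4A6 lie on top of each other in PK-1 Control, COL6A1 and COL6A2 separate in Panc-1 after treatment, and COL1A2 stays at the floor.

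COL6A1 (1291; chromosome 21, 45981770 to 46005048) and COL6A2 (1292; chromosome 21, 46098112 to 46132848) encode chains of the type VI microfilament and lie near each other. In Panc-1 Control they had nearly the same level, 34.2 and 35.2 TPM. COL6A1 stood at 27.7 TPM with RARγi-1 and fell to 11.9 TPM with RARγi-2, while COL6A2 stood at 67.7 and 59.2 TPM. COL6A2 was the only collagen gene above its control in Panc-1 with both inhibitors, with log2 fold changes of 0.92 and 0.73, past the spread but within 2-fold. The ratio of COL6A2 to COL6A1 went from 1.03 in the control to 2.45 and 4.97. In PK-1, both genes were at the floor in the control, and the levels were 1.71 and 1.08 TPM for COL6A1 and 1.43 and 3.71 TPM for COL6A2. COL6A3, the gene of the third chain of the usual type VI molecule, was at 1.53 TPM in Panc-1 Control and at the floor elsewhere.

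COL13A1 (1305; chromosome 10, 69801906 to 69959144), a transmembrane collagen of cell adhesions, was at 13.9 TPM in Panc-1 Control, 5.67 TPM under RARγi-1 and 1.59 TPM under RARγi-2, and at the floor in PK-1. Its log2 fold changes were -1.16 (-0.83 with a pseudocount of 5) and -2.53. The transmembrane class was thus represented by COL17A1 in PK-1 and by COL13A1 in Panc-1. The remaining members were low: COL8A2 was at 1.19 TPM in Panc-1 Control and 1.97 TPM with RARγi-1, and COL26A1 was at 2.51 TPM in Panc-1 Control and at the floor elsewhere.

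The marker genes did not share a direction in Panc-1 with the inhibitors. The epithelial markers KRT8, KRT18 and KRT19 fell with both inhibitors, EPCAM had log2 fold changes of 0.51 and -0.50, and KRT7 of -0.61 and -0.50. Of the mesenchymal markers, VIM had values of -0.64 and -0.67, ZEB1 of 0.68 and 0.30 and CDH2 of -0.69 and -1.02, and of the fibroblast markers THY1 went from 11.1 TPM to 1.34 TPM and the floor. The summed fibroblast markers stood at 66.7 TPM in Panc-1 Control, 25.1 TPM under RARγi-1 and 15.1 TPM under RARγi-2. In PK-1 that sum was 85.1, 46.8 and 25.1 TPM, and VIM rose, with log2 fold changes of 1.13 and 1.72. FN1, the other mesenchymal marker above the floor in PK-1, had values of -0.94 and -1.08. Of the epithelial markers in PK-1, CDH1 had values of 0.66 and 1.17 and KRT7 of -1.30 and -1.20. EPCAM, KRT8, KRT18 and KRT19 were below the PK-1 control but within 2-fold. The part of these markers in the collagen results was not tested. The library scaling differed by 0.13 (log2) or less between a treated library and its control. After median-ratio rescaling none of the 16 collagen genes chosen by the rule given below changed direction. The other, lower collagen genes named here were not part of this check.

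A collagen chain is hydroxylated and glycosylated in the endoplasmic reticulum, folded with chaperones, exported, trimmed and crosslinked outside the cell, bound by receptors and finally cut by proteases. Of 60 genes of these steps, 50 were above the floor in at least 1 library. In PK-1 with RARγi-1, 7 of 38 above the floor rose and 4 fell (9.25% and 4.96% of all entries). With RARγi-2 in that line, 8 of 40 rose and 5 fell (12.1% and 12.6% of all entries). In Panc-1 with RARγi-1, 6 of 47 rose and 7 fell (7.4% and 6.03% of all entries), and with RARγi-2, 7 of 46 rose and 16 fell (8.5% and 11.2%). The PK-1 medians were 0.08 and -0.25, beside 0.15 and 0.03 for all entries, and the Panc-1 medians -0.24 and -0.60, beside 0.09 and -0.03. In all 4 comparisons, 3 rose (2.15% of all entries did) and 3 fell (1.74%).

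**Figure D5:**
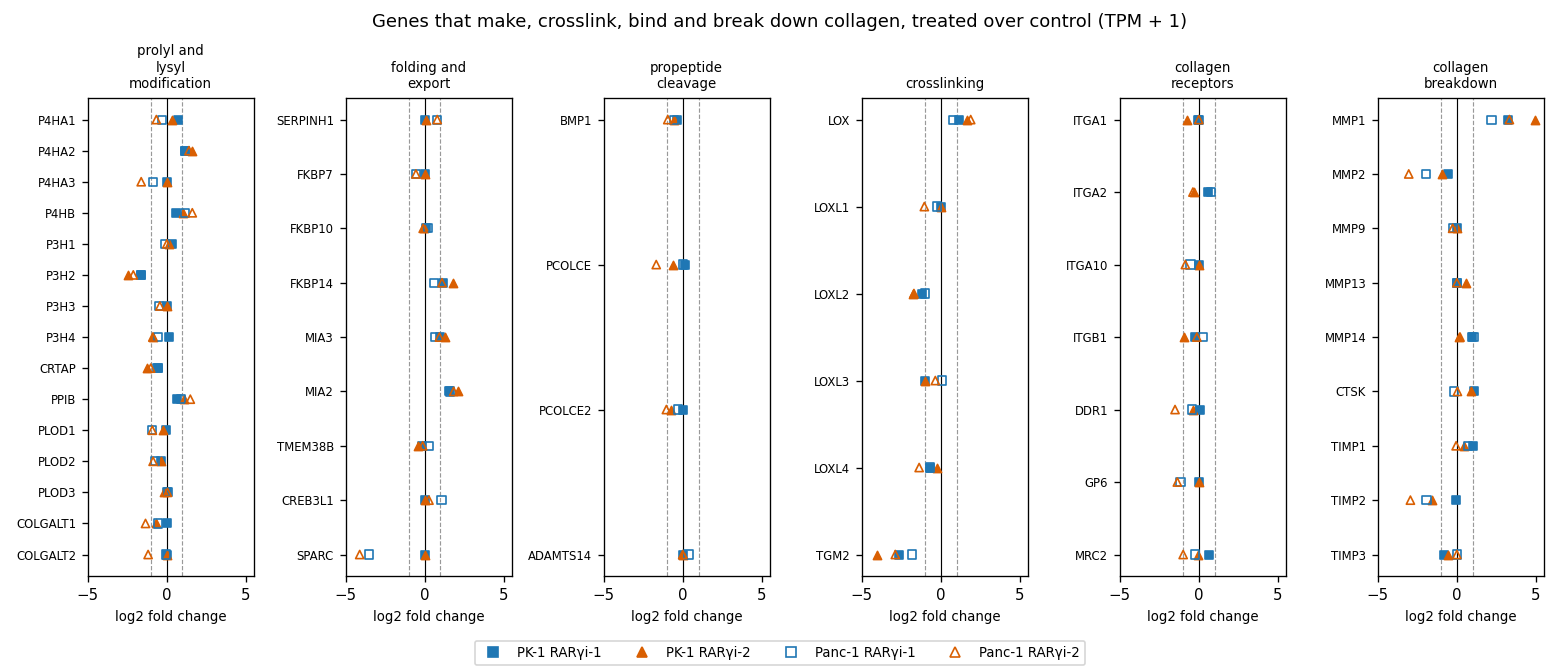
Log2 fold change of (TPM + 1), treated over control, for the genes above the floor in 6 lists of collagen modification, export, cleavage, crosslinking, binding and breakdown; filled symbols are PK-1, open symbols Panc-1, squares RARγi-1 and triangles RARγi-2. MMP1, MIA2 and P4HA2 lie right of the 2-fold line in all 4 comparisons, and P3H2, LOXL2 and TGM2 left of it.

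P4HA2 (8974), a catalytic subunit of the prolyl 4-hydroxylase that stabilizes the triple helix, stood at 50.5 TPM in PK-1 Control and rose to 114 TPM under RARγi-1 and 155 TPM under RARγi-2. Its Panc-1 levels rose from 32.9 TPM to 75.4 and 89.6 TPM. P3H2 (55214), a prolyl 3-hydroxylase of basement membrane collagen, stood at 54.3 TPM in PK-1 Control and fell to 17.0 TPM under RARγi-1 and 9.13 TPM under RARγi-2. Its Panc-1 levels fell from 62.8 TPM to 20.0 and 13.8 TPM. The hydroxylase genes of this list therefore went both ways, and only these 2 of its 15 members passed 2-fold in all 4 comparisons. PPIB, a prolyl isomerase and the gene of the list with the highest mean over the 6 libraries, was at 1341, 2134 and 2840 TPM in the PK-1 libraries, and at 736.5, 1392 and 2085 TPM in those of Panc-1. PLOD2, a lysyl hydroxylase, was at 64.6 TPM in Panc-1 Control and 1.58 TPM in PK-1 Control, and P3H1 and P3H3 were also more than 4-fold higher in Panc-1.

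Of the 9 folding and export genes, MIA2, which acts in the export of bulky cargo such as collagen, was the one that rose in all 4 comparisons. Its PK-1 levels were 27.1 TPM in the control and 81.7 and 119.8 TPM after treatment, and its Panc-1 levels 10.1, 32.9 and 38.7 TPM. The ID of this MIA2 entry carries a number. Only the entry of a symbol with the highest mean was kept, and any other MIA2 entry was not examined. SERPINH1, the collagen chaperone HSP47, had the highest mean of the list over the 6 libraries, and its PK-1 log2 fold changes were 0.03 and 0.08, and its Panc-1 ones 0.76 and 0.80. SPARC, a secreted protein that binds collagen, was at the floor in PK-1 and fell in Panc-1 from 160.4 TPM to 12.9 and 8.35 TPM, log2 fold changes of -3.54 and -4.11.

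Of the 10 propeptide cleavage genes 4 were above the floor in at least 1 library. BMP1, the procollagen C-proteinase, had the highest mean over the 6 libraries and was at 31.7 TPM in PK-1 Control and 5.64 TPM in Panc-1 Control, below PCOLCE2 in the latter, and none of its log2 fold changes was past 2-fold. PCOLCE2, an enhancer of this cleavage, was at 4.40 TPM in PK-1 Control and 21.3 TPM in Panc-1 Control. ADAMTS2, ADAMTS3, TLL1, TLL2, MEP1A and MEP1B were at the floor throughout.

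Among 6 crosslinking genes, LOXL2, a lysyl oxidase that acts on basement membranes, and TGM2, a transglutaminase known as a retinoic acid target, fell in all 4 comparisons. LOXL2 stood at 14.5, 5.68 and 3.55 TPM in the PK-1 libraries, control first, and at 74.9, 36.4 and 22.4 TPM in those of Panc-1. TGM2 stood at 1167, 188 and 70.9 TPM in the PK-1 libraries, and at 66.2, 18.4 and 8.17 TPM in those of Panc-1. LOXL1 was a Panc-1 gene, at 43.2 TPM in the control, 36.1 TPM under RARγi-1 and 20.5 TPM under RARγi-2, and at the floor in PK-1. LOX, a lysyl oxidase, went the other way from low levels. It was at 1.09, 3.58 and 5.48 TPM in the PK-1 libraries, log2 fold changes of 1.13 and 1.64. In Panc-1 it went from the floor to 2.37 and 6.43 TPM, and the log2 fold changes, 0.75 and 1.89, are lower limits. The crosslinking genes therefore did not share a direction.

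Of the 10 receptor genes, 5 were above the floor in each PK-1 comparison and 6 in each Panc-1 comparison, too few to set 0 calls apart from the shares of all entries given above. None of these rose, 0 fell in PK-1, and in Panc-1 GP6 fell with both inhibitors and DDR1 with RARγi-2. GP6 was low, at 4.29 TPM in Panc-1 Control and, near the floor, 1.38 TPM under RARγi-1 and 1.06 TPM under RARγi-2. DDR1 was at 61.8 TPM in Panc-1 Control and 21.2 TPM under RARγi-2. ITGB1, the shared β chain of the collagen integrins, had the highest level of the list in each library, and its PK-1 log2 fold changes were -0.27 and -0.91, and its Panc-1 ones 0.29 and -0.12. MRC2, a receptor that takes up collagen fragments, was at 67.3 TPM in Panc-1 Control and 1.12 TPM in PK-1 Control.

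In the list of 10 breakdown genes, MMP1, the interstitial collagenase that cuts types I, II and III, rose in all 4 comparisons. Its PK-1 levels were 37.7 TPM in the control, 362 TPM under RARγi-1 and 1180 TPM under RARγi-2, log2 fold changes of 3.23 and 4.93. Its Panc-1 levels were 11.4, 55.9 and 123.5 TPM, log2 fold changes of 2.19 and 3.32. MMP2, a gelatinase that also cuts type IV, fell in Panc-1, where it stood at 77.7, 19.0 and 8.54 TPM, and was at 7.30, 4.61 and 3.41 TPM in PK-1. The protease genes therefore did not share a direction. MMP14 was more than 4-fold higher in PK-1 Control than in Panc-1 Control, at 184 and 30.2 TPM, and of the inhibitor genes TIMP3 was at 80.5 TPM in PK-1 Control and at the floor in Panc-1. TIMP1, the gene of the list with the highest mean over the 6 libraries, was at 254, 526 and 344 TPM in the PK-1 libraries and at 453, 748 and 439 TPM in those of Panc-1. TIMP2 fell in Panc-1 from 50.5 TPM to 12.6 and 5.72 TPM. In the PK-1 libraries TIMP2 stood at 45.5, 44.1 and 14.4 TPM, so there it fell with RARγi-2 only.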

How the data were processed

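RNA from 6 cultures was sequenced after mRNA selection with a stranded kit, with 1 library per condition. The authors deposited, per the file headers, log2 values of TPM for 53826 entries per library; no value lies under 0, so that everything under 1 TPM was raised to 1 TPM. The submitters' processing notes name hg38. The aligner, counting method and annotation are not given in the sources used here.

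The log2 values were turned into TPM with Python 3.11.15 and pandas 2.3.3, and log2 fold changes were computed with a pseudocount of 1, which understates the changes of low genes. Entries above 1 TPM in at least 1 library of a comparison were counted past 2-fold. No test was run because there is 1 library per condition, and TPM keeps no depth. The spread was taken as the median absolute deviation, scaled by 1.4826, of the log2 difference between the treated libraries of a line, over entries with at least 5 TPM in 1 of its libraries. Alternatives were no pseudocount, a pseudocount of 5, median-ratio rescaling, a minimum of 5 TPM, summed repeated symbols and a 3-fold threshold. The calculation was tested on simulated libraries of more abundant entries with planted changes, which does not cover genes near the floor in the control. Positions, promoter windows and the names of all 44 members are those of RefSeq, matched by Entrez gene ID.

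Collagen genes were described individually if they reached 10 TPM in a library, or passed 2-fold the same way with both inhibitors of a line with at least 3 TPM in 1 of its libraries (16 genes). From the lists of other genes, those past 2-fold the same way in all 4 comparisons, those more than 4-fold apart between the controls with at least 10 TPM in 1 of them, and the most abundant of each list were eligible. Further genes were named after their values were seen, to account for every collagen gene, its partners and markers, and list members such as LOX that went the other way. The members and lists were chosen with earlier results of these data known.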

Additional observations from a re-analysis of the deposited data

Results flagged for a closer look

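In 3 collagen genes, both treated libraries moved one way in PK-1 and the opposite way in Panc-1. The difference between the cell lines was not tested, since each condition has 1 library, and both values of a line share its control library. The log2 fold changes of COL1A1, with RARγi-1 first, were 1.57 and 1.78 for PK-1, against -3.24 and -4.10 for Panc-1. Those of COL7A1 were 1.27 and 1.06 for PK-1, against -1.62 and -1.82 for Panc-1. Those of COL6A1 were 0.44 and 0.05 in PK-1, where the gene did not exceed 1.71 TPM, and -0.30 and -1.45 in Panc-1; the PK-1 value with RARγi-2 and the Panc-1 value with RARγi-1 were within the spread between treated libraries.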

How the results depend on the processing

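No paired analysis was possible because each comparison within a cell line sets 1 library against 1 other, and a fit across both lines was not run. Of the 80 recomputed counts and medians, 68 kept their direction and stayed within 1.5 times the count, or within the spread for a median, and none reversed. Rescaling moved none past these limits. Summing repeated symbols could change nothing, because each collagen symbol is present once, and 14 of the 68 come from it. The Panc-1 counts of genes that rose were 0 with each inhibitor. These counts could only stay 0 with a pseudocount of 5, a minimum of 5 TPM or a threshold of 3-fold, and they are also among the 68. With a pseudocount of 5, 1 gene rose in PK-1 with RARγi-1 and 1 with RARγi-2, and the Panc-1 medians were -0.32 and -0.72. Without a pseudocount the Panc-1 median with RARγi-2 was -1.60. With a minimum of 5 TPM the Panc-1 medians were -1.20 and -1.94, over fewer genes. At a threshold of 3-fold, 0 genes rose and 1 fell with RARγi-1 in PK-1, 1 rose with RARγi-2 in PK-1, and 3 and 6 fell in Panc-1; a stricter threshold passes fewer genes by construction. A larger pseudocount makes each fold change smaller and no pseudocount makes it larger, also by construction. The cause of the changes with a minimum of 5 TPM was not tested. Genes near the floor have changes that are lower limits, and their order depends on the pseudocount. With 1 library per condition and an unknown depth, neither replicate nor counting error can be given.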
